A study of Equus caballus with 33 samples.

Results

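Cartilage explants that had been exposed to interleukin-1β (IL-1β) for 9 days were compared with explants exposed for 3 days. The comparison rests on 6 of the 33 arrays of the series, 3 per day, chosen by the treatment and the time in the sample titles and paired by replicate number. All 6 held RNA of articular cartilage of the horse, taken after death from the metacarpus of 3 horses with no sign of joint disease. The tissue was kept in medium for 48 h before recombinant equine IL-1β was added at 10 ng/mL. Since both groups had the cytokine, differences between them describe 6 further days of stimulated culture and not the response to IL-1β itself. Unstimulated explants of day 3 and day 9, 3 arrays each, had the same 48 h of preculture and then medium without IL-1β, and show what those days of culture alone did.

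Each RNA sample came from 2 of the 3 explants of a well, minced and digested with enzymes to free the cells, and only 2 ng of it was amplified. Transcripts that respond to digestion are therefore part of every profile. In such bulk samples a lower signal can mean fewer cells of a type or less RNA per cell, and these cannot be told apart.

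Articular cartilage is built by chondrocytes, which lie in a matrix of type II collagen and of aggrecan, a proteoglycan that carries chondroitin sulfate chains. IL-1β acts on chondrocytes through NF-kB and related pathways, induces collagenases, aggrecanases, chemokines, nitric oxide synthase and prostaglandin synthase, and lowers the synthesis of matrix. It is widely used in explants to model the breakdown of cartilage in joint inflammation.

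The 6 arrays were alike as a whole. Their median signals lay between 5.19 and 5.30 on the log2 scale, and correlations between them ran from 0.981 to 0.984 between the days, from 0.981 to 0.984 within day 3 and from 0.983 to 0.986 within day 9. Of 12 measured chondrocyte markers, 10 were above the array median in all 6 arrays, including ACAN, SOX9, HAPLN1 and CHAD. The exceptions were COL9A1, a chain of type IX collagen, with mean signals of 4.76 at day 3 and 4.81 at day 9, and COL2A1, the type II collagen gene, which was between 5.17 and 6.91. Of 11 lymphocyte and 4 red cell markers, 0 were above the array median in all 6 arrays, and of 8 endothelial markers 1 was (PECAM1). Of 14 macrophage markers 3 were (CD68, FCER1G and C1QA), of 8 neutrophil markers 2 (S100A9 and S100A12), and of 7 osteoclast markers 2 (CTSK and OCSTAMP). In the other lists, 8 of 11 markers of synovial lining and fibroblasts and 5 of 8 of osteoblasts and osteocytes were above the median in all 6 arrays. Of the adipocyte and muscle markers, 4 of 9 were. The share of all named genes above the median in all 6 arrays was not counted, so these counts have no background.

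From day 3 to day 9 few genes passed the test. In limma, with the replicate number as a block and Benjamini-Hochberg adjustment over all 25923 probe sets, 10 probe sets changed at an adjusted p under 0.05 (0.0386% of those tested). Of these, 3 rose (0.0116%) and 7 fell (0.027%), and 9 of the 10 stand for a named gene (0.054% of 16661 named genes). Without the block the count was 1 higher and 3 lower. When the arrays of number 1 or of number 2 were left out, 0 probe sets passed in limma (1465 and 1019 at an unadjusted p under 0.05), and without number 3 there were 8, RASGRP1 and BOC among them. The median change over all probe sets was 0.00 on the log2 scale, with the middle range between -0.14 and 0.13, and 157 probe sets differed by 2-fold or more. For 23264 probe sets, or 89.7%, the 95% interval of the change, taken one probe set at a time, excluded a 2-fold change in either direction. The median standard error was 0.20.

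The 3 replicate numbers shared little of their change. Across probe sets, the change from day 3 to day 9 in number 1 correlated with that in number 2 at 0.083 and with that in number 3 at -0.019, and numbers 2 and 3 correlated at 0.117. Without IL-1β the same correlations were as low, at 0.117 for numbers 1 and 2, 0.065 for 1 and 3 and 0.053 for 2 and 3. For scale, the difference between stimulated and unstimulated explants correlated between numbers at 0.389 to 0.445 on day 3 and at 0.509 to 0.524 on day 9. Probe sets on an array are not independent, and these correlations describe the arrays only.

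RASGRP1, CTSC and XG were the named genes that rose. RASGRP1 encodes an exchange factor that activates Ras in response to diacylglycerol and is best known from T cells. Its log2 signal with IL-1β was 4.13, 4.39 and 4.95 in numbers 1 to 3 at day 3, and 6.97, 6.86 and 6.78 at day 9. Every day 9 array was above every day 3 array, and the day 3 values lay below the array medians. The rise was 2.38 ± 0.36 (log2 difference ± SE of the fit, 3 pairs), with an adjusted p of 0.016. No fold is given for RASGRP1 and CTSC, because whether their day 3 signals stood above background was not analysed here. Without IL-1β RASGRP1 was at 4.04, 3.67 and 4.58 at day 3 and at 3.88, 4.25 and 3.36 at day 9, values that overlap with the stimulated explants of day 3 and lie below those of day 9.

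CTSC encodes cathepsin C, a lysosomal dipeptidyl peptidase that activates the serine proteases of leukocyte granules. Its signal with IL-1β went from 3.49, 3.93 and 3.77 at day 3 to 5.36, 5.46 and 6.53 at day 9. The groups did not overlap, number 3 was the highest at day 9, and the day 3 values lay below the array medians. CTSC rose by 2.05 ± 0.34 on the log2 scale (adjusted p = 0.016), while the unstimulated explants differed by -0.30 (adjusted p = 0.897). The call of CTSC was lost with the 15 stimulated arrays alone and with the 12 arrays of days 3 and 9. Among the 7 osteoclast and 14 macrophage markers, 0 passed the test over these days. At an unadjusted p under 0.05 in limma, 2 osteoclast markers, CTSK among them, were higher and 1 was lower. Over all named genes 2.81% were higher and 3.2% lower at that p, and of the macrophage markers 0 were either. The osteoclast markers ranged from -0.56 to 1.26, so that their mean joins members that differed in opposite directions. The mean signal of the macrophage markers was 4.91 to 4.98 over the day 3 arrays and 4.89 to 5.09 over the day 9 arrays, and that of the osteoclast markers 5.38 to 5.82 and then 5.75 to 5.80. LCK and CD8B, the lymphocyte markers with the smallest p, were at -0.70 (adjusted p = 0.287) and 0.22 (adjusted p = 1), and the part of such cells in the rise of RASGRP1 and CTSC was not tested.

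XG encodes a cell surface glycoprotein related to CD99 that carries the Xg blood group in humans. Its signal was 8.97, 9.31 and 9.23 at day 3 and 9.86, 10.02 and 10.01 at day 9. Here too all day 9 arrays were higher. XG rose by 0.80 ± 0.14 (adjusted p = 0.0191), a change of 1.74-fold from a level already well above the array medians.

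The 3 genes that rose did not differ detectably between stimulated and unstimulated explants at day 3 and did at day 9. The difference between stimulated and unstimulated explants was 0.39 at day 3 (adjusted p = 0.755) and 3.04 at day 9 (adjusted p = 1.74e-06) for RASGRP1. It was -0.17 (adjusted p = 0.92) and then 2.17 (adjusted p = 8.11e-05) for CTSC, and 0.18 (adjusted p = 0.69) and then 1.06 (adjusted p = 7.2e-06) for XG. These differences use the same stimulated arrays as the change over time. The change with IL-1β was larger than that without it by 2.65 for RASGRP1, 2.35 for CTSC and 0.88 for XG, and none of these passed the test of the difference of changes (adjusted p = 0.144, 0.221 and 0.257). A p that misses the threshold does not show that the changes were alike.

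**Figure D1:**
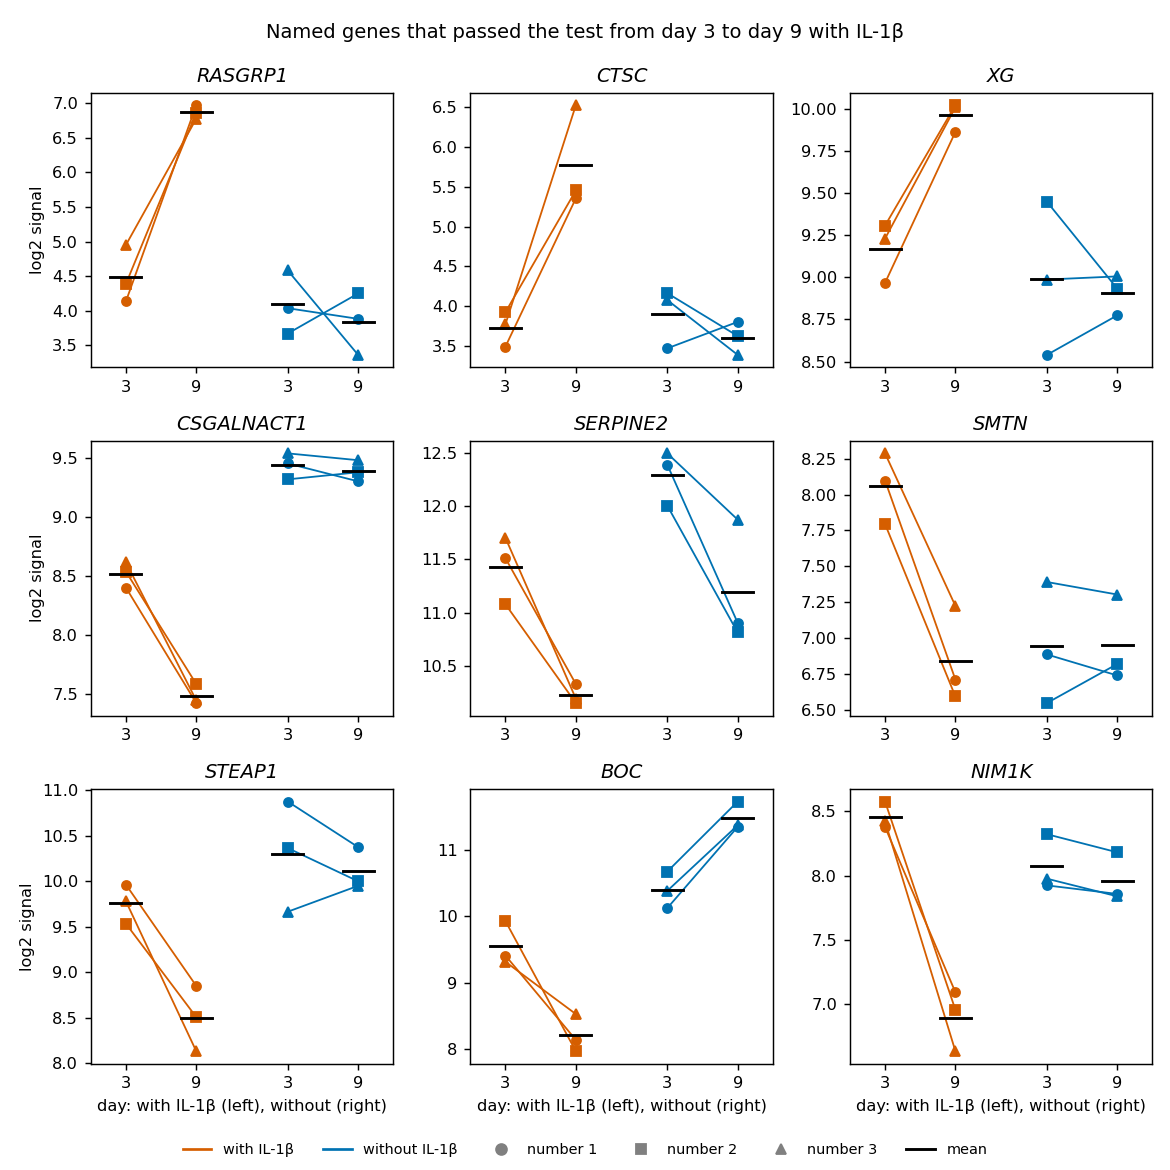
Log2 signal at days 3 and 9 of the 9 named genes that passed the test, 1 panel per gene, with IL-1β on the left of each panel and without it on the right. Points are single arrays, lines join arrays of the same replicate number and black bars are means of 3. In every panel the stimulated day 3 and day 9 points are separate, which the choice of genes by the test favours. BOC is the panel where the unstimulated explants had a change in the opposite direction that passed the test.

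BOC was lower at day 9 with IL-1β and higher without it. It encodes a cell surface co-receptor of hedgehog proteins, which regulate chondrocyte proliferation and maturation. With IL-1β its signal was 9.41, 9.92 and 9.31 at day 3 and 8.14, 7.97 and 8.53 at day 9. Without IL-1β it was 10.12, 10.67 and 10.38 at day 3 and 11.34, 11.72 and 11.37 at day 9. Arrays of the 2 days did not overlap under either treatment, and the direction was opposite in all 3 numbers.

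BOC fell by 1.34 ± 0.22 with IL-1β (adjusted p = 0.016, a call lost with the 15 stimulated arrays alone and with the 12 arrays of days 3 and 9) and rose by 1.09 ± 0.22 without it (adjusted p = 0.0372). The difference of the changes was -2.42 ± 0.31 (adjusted p = 0.000902), and BOC was the only probe set of 25923 that passed this test (0.00386%). Without the arrays of number 1 the value was -2.39 (adjusted p = 0.452). The deficit of stimulated against unstimulated explants went from -0.84 at day 3 (adjusted p = 0.0219) to -3.27 at day 9 (adjusted p = 1.56e-10). At day 0 the mean signal was 10.27. After day 9 the stimulated means were 7.70, 7.55 and 7.58 at days 15, 21 and 27, and the unstimulated means were 11.61, 11.59 and 11.79.

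Of 12 other measured genes of the hedgehog pathway, chosen after the values of BOC were known, 0 passed the test from day 3 to day 9. PTCH1, the hedgehog receptor and itself a target of the pathway, was at -0.48 ± 0.18 (adjusted p = 0.642), and SMO, the signal transducer, at -0.56 ± 0.19 (adjusted p = 0.592). CDON, the co-receptor most like BOC, was at -0.30 (adjusted p = 0.95). The transcription factor gene GLI3 was at -0.24, from a day 3 mean of 9.14. The transcription factor genes GLI1 and GLI2 were at 0.01 and -0.06, and the ligand gene IHH was at 0.06. Day 3 means of these 3 were 5.10, 5.03 and 4.22, below the array medians of 5.19 to 5.30. Their small differences therefore do not show that the genes were unchanged. The rest were DHH at 0.51 (adjusted p = 0.642), HHIP at -0.43, DISP1 at -0.21, SUFU at -0.08 and SHH at -0.0001. Day 3 means of DHH, HHIP and SHH were 4.30, 4.93 and 4.91, also below the array medians, so their differences have the same limit.

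CSGALNACT1 encodes an N-acetylgalactosaminyltransferase that starts the chondroitin sulfate chains of aggrecan. Its signal fell from 8.40, 8.54 and 8.62 to 7.43, 7.59 and 7.45 with IL-1β, and the days did not overlap. The fall was 1.03 ± 0.17 on the log2 scale (adjusted p = 0.016, a call lost with the 15 stimulated arrays alone). In unstimulated explants it was 9.45, 9.32 and 9.54 at day 3 and 9.30, 9.38 and 9.48 at day 9, a difference of -0.05 (adjusted p = 0.975). CSGALNACT1 was below the unstimulated level by day 3 already, at -0.92 (adjusted p = 0.00101), and at -1.90 by day 9 (adjusted p = 1.76e-08). The stimulated mean was 7.28 at day 15, 7.05 at day 21 and 6.91 at day 27.

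**Figure D2:**
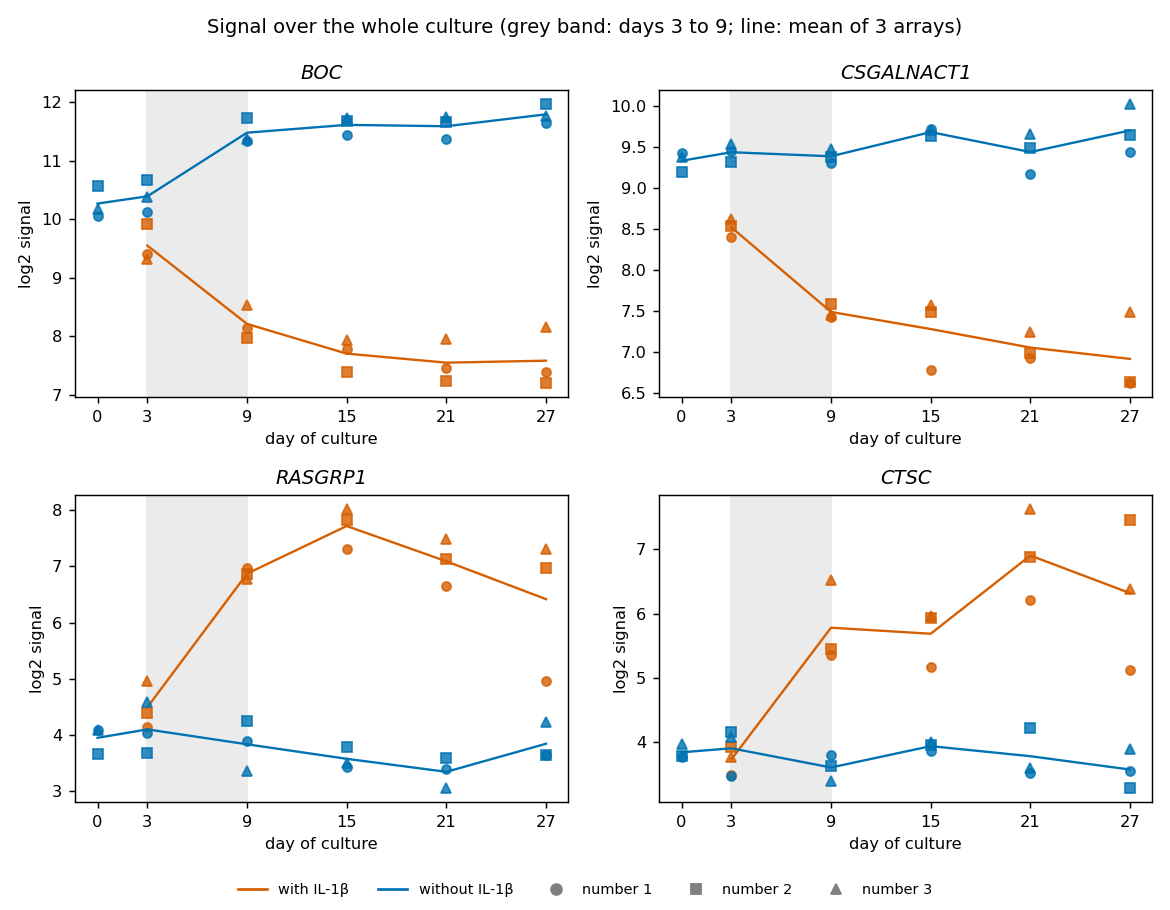
Log2 signal of BOC, CSGALNACT1, RASGRP1 and CTSC over the whole culture, by day, with a grey band over days 3 to 9. Points are single arrays and lines join the means of 3 arrays with IL-1β (orange) and without it (blue); stimulated RASGRP1 means after day 9 are 7.72, 7.09 and 6.42, and those of CTSC 5.69, 6.90 and 6.32.

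SERPINE2 encodes protease nexin 1, an inhibitor of thrombin, urokinase and other serine proteases. Its signal with IL-1β was 11.51, 11.08 and 11.70 at day 3 and 10.33, 10.15 and 10.19 at day 9. It fell by 1.20 ± 0.22 (adjusted p = 0.0308). The fall was shared by unstimulated explants, where the signal went from 12.39, 12.003 and 12.49 to 10.90, 10.81 and 11.87, a change of -1.10 ± 0.22 (adjusted p = 0.0372). The difference of the 2 changes was -0.11 (adjusted p = 0.995), and the day 0 mean was 13.03.

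SMTN encodes smoothelin, an actin-associated protein of contractile cells. Stimulated explants had signals of 8.10, 7.79 and 8.29 at day 3 and of 6.71, 6.59 and 7.22 at day 9. SMTN fell by 1.22 ± 0.23 (adjusted p = 0.0454), the weakest call of the 9. At day 3 it was higher with IL-1β than without it, by 1.12 (adjusted p = 0.00315), and at day 9 the difference was -0.11 (adjusted p = 0.856). The day 9 arrays overlapped with those of unstimulated explants, which stood at 6.89, 6.55 and 7.39 on day 3 and 6.74, 6.82 and 7.30 on day 9. A probe set without a gene name had the same course. It was at 8.92, 8.82 and 8.43 at day 3 and 6.76, 6.98 and 6.48 at day 9, and fell by 1.98 ± 0.33 (adjusted p = 0.016). Its excess over unstimulated explants was 2.43 at day 3 (adjusted p = 3.36e-05) and 0.42 at day 9 (adjusted p = 0.534).

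NIM1K encodes a kinase related to the AMP-activated protein kinase. Its signal was 8.38, 8.58 and 8.42 at day 3 and 7.09, 6.95 and 6.63 at day 9 with IL-1β. The fall of 1.57 ± 0.26 (adjusted p = 0.016) was the largest among the named genes that passed and were lower at day 9. Unstimulated explants differed by -0.11 (adjusted p = 0.958). STEAP1, of a family of membrane metalloreductases, was at 9.96, 9.53 and 9.78 at day 3 and 8.85, 8.51 and 8.13 at day 9. It fell by 1.26 ± 0.22 (adjusted p = 0.0174), against -0.19 without IL-1β (adjusted p = 0.891). For both genes the stimulated arrays of the 2 days were apart, and the deficit against unstimulated explants at day 9 was -1.07 (adjusted p = 0.00865) for NIM1K and -1.61 (adjusted p = 1.05e-05) for STEAP1.

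Over the same days without IL-1β, 31 probe sets passed the test (0.12%), 13 higher (0.0501%) and 18 lower (0.0694%). BOC and SERPINE2 were the genes called under both treatments. The others included several genes of the matrix whose change with IL-1β did not pass. HTRA3, a secreted serine protease, fell by 2.81 without IL-1β (adjusted p = 0.00113) and was at -0.96 with it (adjusted p = 0.661). LOXL3, which cross-links collagen, fell by 2.12 (adjusted p = 0.00412) against -0.67 (adjusted p = 0.863), and COL6A3, a type VI collagen chain, fell by 1.82 (adjusted p = 0.0229) against -0.57 (adjusted p = 0.973). CHRDL2, a BMP antagonist, rose by 3.01 (adjusted p = 0.0231) against 0.14 (adjusted p = 1), and the urea transporter gene SLC14A1 rose by 1.69 (adjusted p = 0.0353) against -0.64 (adjusted p = 0.911). For none of these 5 did the difference between the treatments pass the test, with adjusted p from 0.144 for SLC14A1 to 0.707 for COL6A3.

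The lower genes nearest to the threshold were ANGPT2, ENPP1 and NPR3, each at an adjusted p of 0.0534. ANGPT2, a secreted ligand of the endothelial receptor Tie2, was at 6.97, 6.26 and 6.25 at day 3 and 5.10, 4.57 and 4.11 at day 9, a difference of -1.90 ± 0.36. ENPP1, which makes the pyrophosphate that restrains mineral formation, was at 10.67, 10.34 and 10.64 and then 9.95, 9.72 and 9.91, a difference of -0.69 ± 0.13. NPR3, the clearance receptor of natriuretic peptides, was at 7.01, 6.83 and 7.07 and then 5.07, 4.46 and 5.12, a difference of -2.09 ± 0.41. In all 3 genes the arrays of the 2 days were separate, which a choice by small p favours. They were followed by NDNF at -0.79 (adjusted p = 0.0681), TBX15 at -0.64 and RPL17 at -0.62 (both at an adjusted p of 0.0941).

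On the upper side the next smallest p-values belonged to LOC100066210 at 1.31 (adjusted p = 0.123), the antigen-trimming peptidase gene ERAP2 at 1.22 (adjusted p = 0.138) and DKK1 at 1.41 (adjusted p = 0.139). DKK1, a secreted Wnt inhibitor, was at 3.87, 3.66 and 3.18 at day 3 and at 4.38, 4.94 and 5.63 at day 9. TM4SF19 was at 6.85, 6.82 and 6.86 and then 8.46, 8.74 and 7.98 (difference 1.55, adjusted p = 0.163). JPH3 differed by 0.70 (adjusted p = 0.153). None of these 5 passed the test. The arrays of the 2 days were apart in each, but a choice by small p favours this. The share of all probe sets with separate days was not counted, so the separation adds nothing to the p-values.

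Genes widely used to follow cartilage and its response to IL-1β did not pass the test, and some of their intervals were wide. MMP1, the interstitial collagenase, was at 13.00, 13.00 and 13.27 at day 3 and 13.21, 13.26 and 13.08 at day 9, with a difference of 0.09 (95% interval -0.70 to 0.88). MMP3, stromelysin 1, was at 13.32, 13.46 and 13.46 and then 13.43, 13.43 and 13.48. Both were close to 13.9, the highest value on any array, where a further rise can be compressed. MMP13, the main collagenase of cartilage, was at 12.24, 13.10 and 13.31 and then 13.28, 13.39 and 13.38, so that number 1 was lowest at day 3. The fit takes the spread of a gene from all groups, and the interval of MMP13 ran from -1.85 to 2.79.

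The aggrecanase gene ADAMTS4 differed by -0.20 (95% interval -1.06 to 0.66). ADAMTS5, the other main aggrecanase, was at 10.02, 10.14 and 9.17 at day 3 and 9.10, 8.72 and 8.68 at day 9, a difference of -0.95 (95% interval -2.05 to 0.16, adjusted p = 0.973) against -2.16 without IL-1β (adjusted p = 0.157). NOS2, the inducible nitric oxide synthase, was at 12.12, 12.45 and 11.70 and then 11.90, 12.08 and 12.28. PTGS2, the inducible prostaglandin synthase, was at 10.34, 10.46 and 11.13 and then 11.54, 11.66 and 11.70, and its difference of 0.98 did not pass the test (adjusted p = 0.752). IL6 was at 8.32, 8.52 and 11.30 and then 10.15, 9.27 and 9.55. Numbers 1 and 2 were higher at day 9 and number 3 was lower, and the difference was 0.28 (95% interval -1.01 to 1.56). The oxygenase gene HMOX1 differed by 0.57 (95% interval -0.21 to 1.35), and GAPDH of glycolysis by 0.01 (95% interval -0.24 to 0.27).

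**Figure D3:**
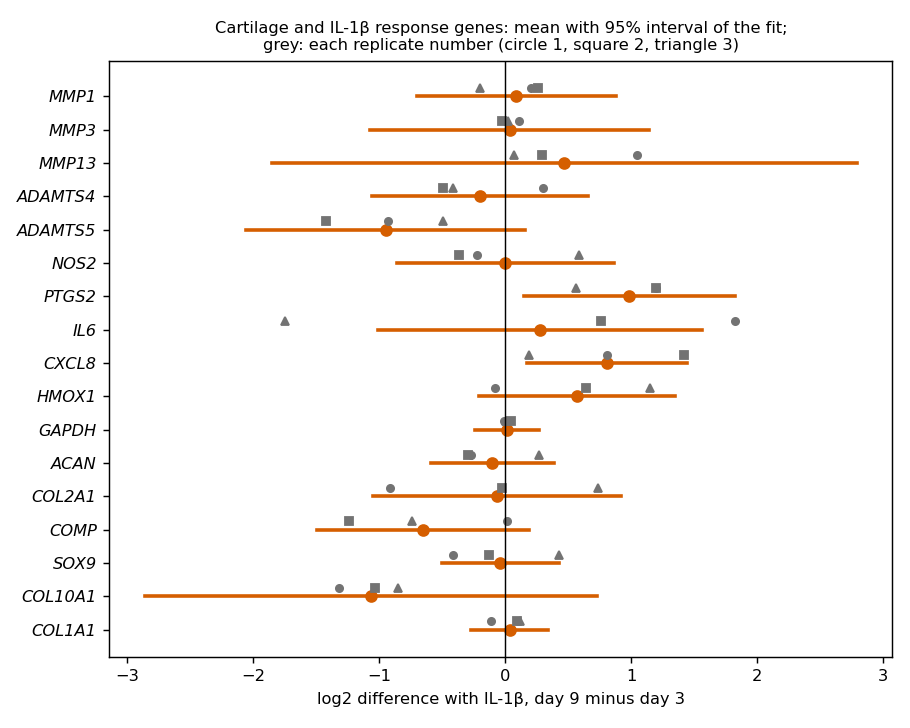
Log2 difference between day 9 and day 3 with IL-1β for 17 genes of cartilage and of the IL-1β response, with the mean and 95% interval of the fit in orange and each replicate number in grey. The intervals of PTGS2 and CXCL8 lie above 0 before adjustment, that of MMP13 spans -1.85 to 2.79, and no gene here passed the adjusted test.

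Among the 48 measured matrix-degrading proteases 0 passed the test, and the median difference was -0.03 against 0.01 over all named genes. CTSK, the collagen-degrading cathepsin K, was at 11.16, 11.68 and 11.36 at day 3 and 12.20, 12.67 and 12.40 at day 9. Its difference of 1.02 ± 0.23 was alike in the 3 numbers and had an adjusted p of 0.142. Without IL-1β CTSK was at -0.50 (adjusted p = 0.617), and the treatments differed by -0.01 at day 3 (adjusted p = 0.997) and by 1.52 at day 9 (adjusted p = 5.08e-05). MMP8, the neutrophil collagenase, was at 7.46, 8.34 and 7.19 and then 9.03, 9.38 and 7.81 (1.07 ± 0.29, adjusted p = 0.329). ADAMTS9 was at 0.88 (adjusted p = 0.4) and MMP16 at -0.61 (adjusted p = 0.6).

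SERPINE2 was the member called among 14 protease inhibitors. TIMP1, an inhibitor of matrix metalloproteinases, was at -0.86 ± 0.20 with IL-1β (adjusted p = 0.146) and fell by 1.06 without it (adjusted p = 0.0295). TFPI2, an inhibitor of plasmin and related proteases, was at 1.75 with IL-1β (adjusted p = 0.355) and at -0.39 without it (adjusted p = 0.91).

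Structural genes of cartilage gave 0 calls in 7 cartilage collagens, 26 genes of aggrecan, link protein and glycoproteins, and 12 small leucine-rich proteoglycans. ACAN, the aggrecan core protein, was at 12.12, 11.92 and 11.61 at day 3 and 11.84, 11.63 and 11.87 at day 9, a difference of -0.10 (95% interval -0.59 to 0.39). COL2A1 differed by -0.07 (95% interval -1.05 to 0.92), SOX9, the chondrocyte transcription factor, by -0.04 (95% interval -0.50 to 0.42), and COMP by -0.65 (95% interval -1.49 to 0.19). CHAD, which encodes the collagen-binding protein chondroadherin, was at 10.25, 9.82 and 9.81 and then 8.37, 8.73 and 9.00. The days were separate, with a difference of -1.26 ± 0.42 (adjusted p = 0.559). OMD, osteomodulin, was at 8.11, 9.12 and 5.01 and then 5.32, 6.11 and 3.94 (-2.29 ± 0.67, adjusted p = 0.398), so that it was lower in all 3 numbers although number 3 was low at both times.

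Of the 31 enzymes of hyaluronan and glycosaminoglycans, CSGALNACT1 was the only call, 30 did not pass the test and the list's median was -0.05. In the list of 19 regulators of hypertrophy and mineral, 15 were below 0 and the median was -0.26, with ENPP1 the nearest to the threshold. MEF2C, a transcription factor of hypertrophy, was at -0.32 (adjusted p = 0.842), and COL10A1, the collagen of hypertrophic cartilage, at -1.07 (95% interval -2.86 to 0.72). Without IL-1β the median of these 19 was 0.07. Over all named genes, 47.6% were below 0 with IL-1β.

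Growth factor and matrix-signalling genes gave no call. CCN2, the connective tissue growth factor, was at 11.83, 12.05 and 11.01 at day 3 and 10.37, 10.09 and 10.20 at day 9, with all day 9 arrays lower (-1.41 ± 0.31, adjusted p = 0.125). TGFB2 was at -1.61 (adjusted p = 0.365) and the BMP ligand gene BMP6 at -1.43 (adjusted p = 0.657), while INHBA, the activin A chain, was at 1.18 (adjusted p = 0.382). Of 50 genes of the BMP and TGF-β pathway, 6 were lower and 1 higher at an unadjusted p under 0.05, where 3.2% of all named genes were lower and 2.81% higher. IGFBP7 was at 10.60, 11.07 and 11.53 and then 10.26, 9.90 and 10.20 (-0.94, adjusted p = 0.211). PAPPA, a protease that releases insulin-like growth factors, was at -0.85 (adjusted p = 0.262), and FGF1 at -0.91 (adjusted p = 0.355). The collagen gene COL12A1 was at 8.48, 6.96 and 6.74 and then 5.46, 5.51 and 6.07 (-1.71 ± 0.36, adjusted p = 0.0941), with number 1 far above the others at day 3.

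Of 22 chemokine genes 0 passed the test and 16 were above 0 and 6 below (47.6% of all named genes were below 0), with a median of 0.10. The numbers differed, with 20 of 22 higher in number 1 (median 0.24), 12 of 22 lower in number 2 (median -0.10) and 14 higher in number 3 (median 0.15). CXCL6, which attracts neutrophils, was at 7.36, 8.11 and 10.60 at day 3 and 9.57, 10.62 and 11.14 at day 9. It was higher in every number but the groups overlapped, and the difference was 1.76 ± 0.47 (adjusted p = 0.329). CXCL8, interleukin-8, differed by 0.81 (adjusted p = 0.668). TREM1, a receptor that amplifies inflammation in myeloid cells, was at 10.70, 11.44 and 11.16 and then 12.38, 12.52 and 12.59, with separate days (1.39 ± 0.37, adjusted p = 0.316). S100A9, a neutrophil-associated calcium-binding protein, was at 8.44, 8.03 and 9.74 and then 8.29, 6.81 and 7.49 (-1.21, adjusted p = 0.423). The mean signal of the 8 neutrophil markers was 6.31, 6.14 and 6.82 in numbers 1 to 3 at day 3. At day 9 it was 6.51, 5.91 and 6.38, higher in number 1 and lower in numbers 2 and 3. For the change from day 3 to day 9, 4 of the 8 were above 0 and 4 below.

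Genes of the interferon response and of antigen presentation gave 0 calls among 47 after adjustment, with 33 above 0. At an unadjusted p under 0.05, 10 were higher (21.3%, against 2.81% of all named genes) and 0 lower. They were IRF1, IFI35, DHX58, PSMB9, PSMB10, TAP2, MX1, ISG15, PARP14 and TAPBP. IRF1, a transcription factor of both the interferon and the NF-kB response, was at 6.11, 6.06 and 6.68 at day 3 and 7.21, 7.50 and 6.98 at day 9 (0.95 ± 0.21, adjusted p = 0.142). DHX58, a regulator of viral RNA sensing, was at 5.35, 6.45 and 5.89 and then 6.68, 6.91 and 6.92 (0.94, adjusted p = 0.153). The immunoproteasome gene PSMB9 differed by 1.04 (adjusted p = 0.259) and the peptide transporter gene TAP2 by 0.91 (adjusted p = 0.48).

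The day 9 arrays of IRF1 and DHX58 were above their day 3 arrays in all 3 numbers. The median of the 47 genes was 0.09, and 0.17, 0.10 and 0.16 in numbers 1 to 3. Their mean signal was 6.03, 6.12 and 6.18 at day 3 and 6.32, 6.37 and 6.34 at day 9 with IL-1β. Without it the means went from 5.87, 5.83 and 5.99 to 6.03, 5.88 and 6.01. The stimulated mean over 3 arrays was 6.54 ± 0.09 (SD) at day 15 and 6.48 ± 0.08 at day 21. By day 27 it was 6.37 ± 0.16, against 6.35 ± 0.03 at day 9.

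Cytosolic ribosomal protein genes lay just below their day 3 level with IL-1β. Of 63 measured members 0 passed the adjusted test, 62 were below 0 and 23 were lower at an unadjusted p under 0.05. Over all named genes, 47.6% were below 0 and 3.2% were lower at that p. The median was -0.21, and each interval except 1 excluded a 2-fold change. Numbers 2 and 3 had medians of -0.32 and -0.27 with 61 and 60 members below 0, whereas number 1 had a median of -0.01 with 34 below 0. The mean signal of the 63 genes was 11.61, 11.63 and 11.67 at day 3 and 11.58, 11.31 and 11.39 at day 9. Without IL-1β their median difference was 0.02, with 24 members below 0. Quantile normalisation of the arrays once more gave a median of -0.18 with 60 of 63 below 0. RPL17 was at 11.62, 11.44 and 11.63 and then 11.27, 10.73 and 10.83 (-0.62 ± 0.13, adjusted p = 0.0941), and RPS19 differed by -0.41 (adjusted p = 0.4).

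**Figure D4:**
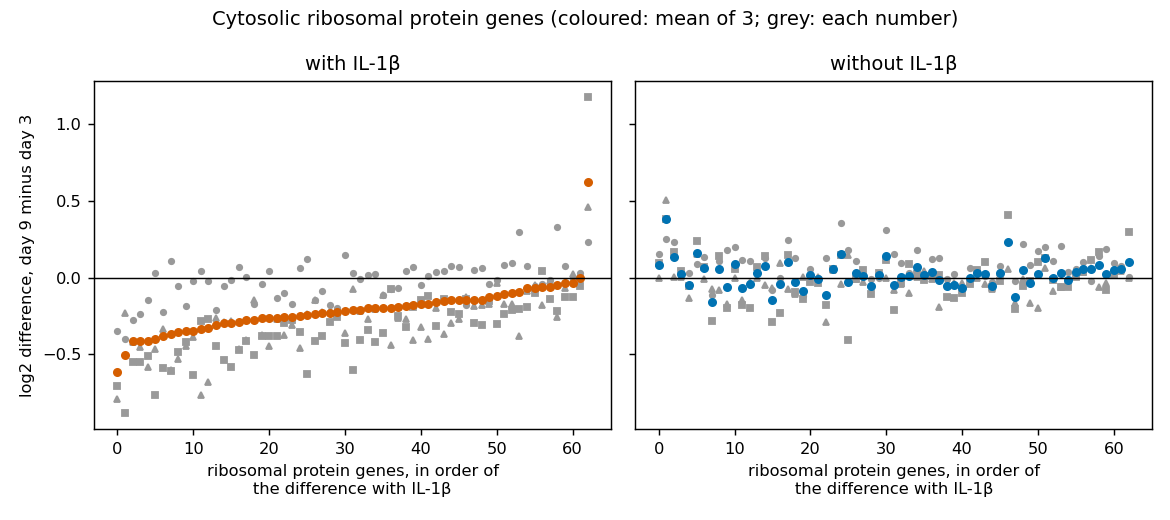
Log2 difference between day 9 and day 3 of 63 cytosolic ribosomal protein genes, with IL-1β on the left and without it on the right, ordered in both panels by the difference with IL-1β. Coloured points are means of 3 pairs and grey marks the replicate numbers (circle 1, square 2, triangle 3); 62 means are below 0 on the left, where number 1 lies nearer to 0 than numbers 2 and 3, and 24 on the right.

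Cholesterol synthesis genes were below their day 3 level under both treatments. With IL-1β 27 of 35 were below 0, against 47.6% of all named genes. The median was -0.30, with -0.24, -0.31 and -0.29 in the 3 numbers. Without IL-1β 28 were below 0 with a median of -0.26, against a median of 0.01 over all named genes. The share of all named genes below 0 without IL-1β was not counted. No member passed the adjusted test. EBP, a sterol isomerase, was at 9.37, 9.30 and 8.78 and then 8.90, 8.62 and 8.14 (-0.60 ± 0.18, adjusted p = 0.425), and FDFT1, squalene synthase, differed by -0.54 (adjusted p = 0.444). APOD, a lipid carrier in the same list, was at -1.58 with IL-1β (adjusted p = 0.387) and 0.73 without it (adjusted p = 0.745).

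For 45 genes of glycolysis and the hypoxia response the median was 0.11 with IL-1β and -0.12 without it, and 0 passed the test. The difference of the changes was above 0 in 36 of them and passed the test in 0. The share above 0 over all named genes was not counted, so the 36 cannot be set against a background. SLC2A3, a glucose transporter, was at 9.12, 8.95 and 9.26 and then 9.98, 10.80 and 10.77, with all day 9 arrays higher (1.41 ± 0.41, adjusted p = 0.387). Number 1 differed from the others, since its median over the list was -0.10 and those of numbers 2 and 3 were 0.16 and 0.29.

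Over all 45 lists, which hold 1231 measured genes, the genes called were CTSC, SERPINE2 and CSGALNACT1. List medians with IL-1β ran from -0.30 to 0.11 among the 35 pathway lists. In the 10 marker lists 0 genes were called. The lowest median of all 45 lists was that of 8 osteoblast and osteocyte markers, at -0.43, with -0.19, -0.31 and -0.66 in numbers 1 to 3 and 0.09 without IL-1β. Of these, 6 were lower in all 3 numbers, among them RUNX2 at -0.51 (adjusted p = 0.978), IBSP at -0.54 and ALPL at -0.60. SP7 and SOST were at 0.05 and 0.06. The share of all named genes lower in all 3 numbers is not given here, so the 6 have no background. At an unadjusted p under 0.05 in limma, 0 of the 8 were higher and 0 lower. The mean signal of these 8 markers was 6.39 to 6.74 over the day 3 arrays and 6.09 to 6.44 over the day 9 arrays. The 11 markers of synovial lining and fibroblasts had a mean signal of 7.03 to 7.23 over the day 3 arrays and 6.78 to 6.96 over the day 9 arrays, and the 12 chondrocyte markers 7.83 to 7.998 and then 7.64 to 7.82. The synovial and fibroblast markers were split, with 5 of 11 above 0 and 6 below, from -1.17 to 0.96. Over all named genes, 47.6% were below 0. FAP, a fibroblast surface protease and 1 of the members below 0, was at 8.74, 8.06 and 9.00 and then 7.20, 7.67 and 7.44 (adjusted p = 0.675). The part that these marker levels have in the changes of BOC, SERPINE2 and the other genes that fell was not tested.

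**Figure D5:**
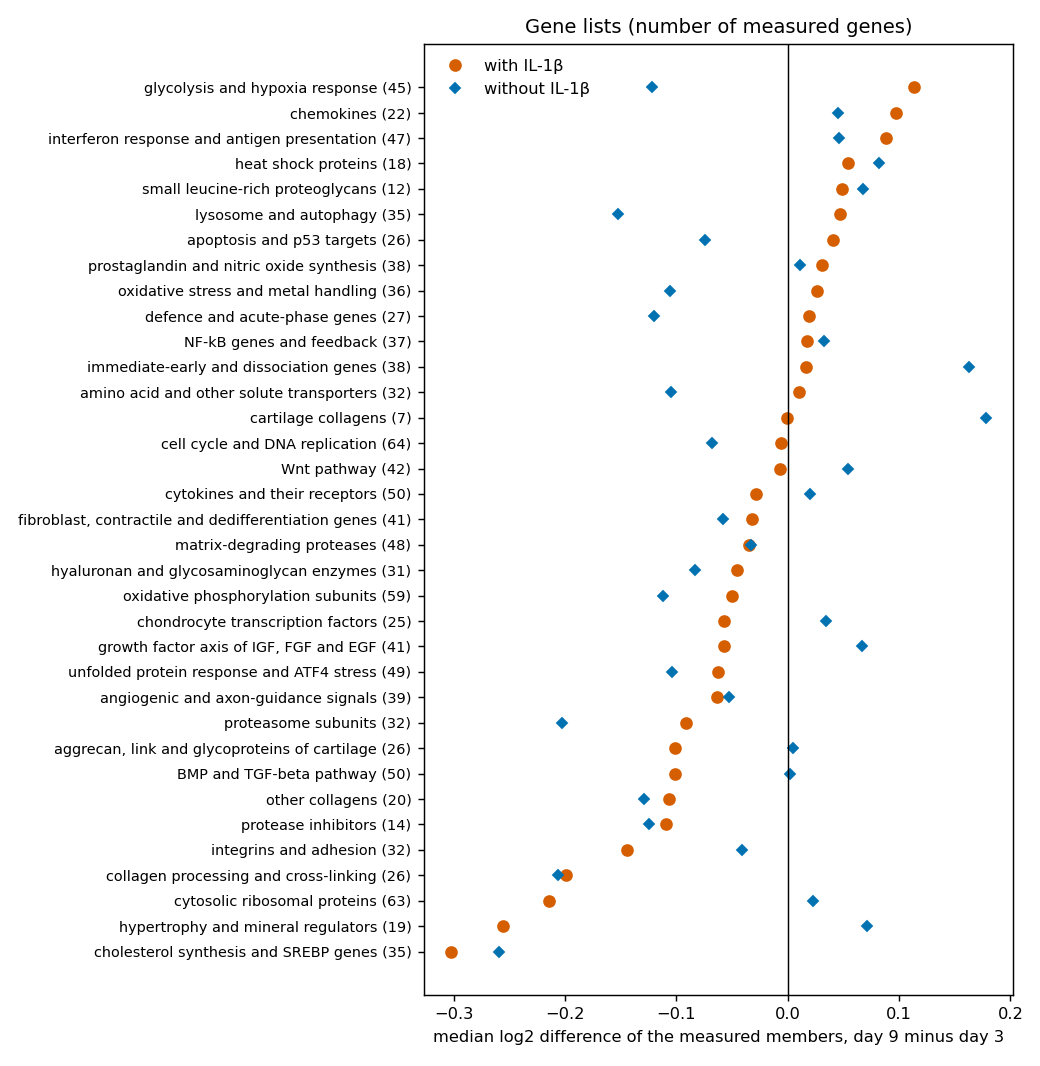
Median log2 difference between day 9 and day 3 of 35 gene lists, with IL-1β (orange circles) and without it (blue diamonds); the number of measured genes stands in brackets. With IL-1β the medians run from -0.30 for cholesterol synthesis to 0.11 for glycolysis and hypoxia.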

How the data were processed

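The deposited table holds the authors' log2 values of 25923 probe sets on 33 arrays. Per the submitters' processing notes, RMA, limma and Affymetrix Expression Console had a part in them, without versions or roles. The log base was inferred from the range of values, 1.50 to 13.9. RMA compresses changes near both ends, and its quantile step removes a change that most genes share. The genome build was not given in the sources used here. The values were not normalised again. Arrays report no read depth, so that the number of arrays limits precision, and signal over background was not analysed here.

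Gene symbols came from the array's annotation in GEO and may be outdated. Of the probe sets, 16789 had 1 symbol, 343 several and 8791 none; only the first were named. The probe set with the highest mean stood for a gene, which gave 16661 genes.

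All 33 arrays were fitted with lmFit and eBayes of limma 3.58.1 (R 4.3.3), with a mean for each of 11 groups and the replicate number as a fixed block, which leaves 20 residual degrees of freedom. Tests were two-sided, with Benjamini-Hochberg adjustment across every probe set and a threshold of 0.05. Errors after ± are standard errors of this fit unless named SD. A design of 3 pairs alone cannot reach an exact permutation p under 0.05, so that the spread was taken from all groups. The block removes differences in level between the numbers. The p-values measure the spread that remains between explants of 3 horses, pooled over all 11 groups and moderated by eBayes. Most arrays behind this spread are outside the stimulated groups of days 3 and 9. That arrays of 1 number come from 1 horse is an inference from the sample descriptions, whose prefix goes with the number. Deviations from group means correlated at a median of 0.164 within a number (165 pairs) and -0.084 between numbers (330 pairs). Deviations in a group sum to 0, so the negative value between numbers follows from the positive one within a number and adds nothing to it. Averaged over the arrays of other groups, each of the 33 arrays correlated best with its own number. Between the stimulated arrays of days 3 and 9 the same-number correlations were 0.042, 0.092 and 0.094.

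Gene lists (45, with 1401 genes, of which 1231 were measured) are described by counts and medians, without a test. The comparison and all lists were chosen with earlier results of these data known, and the hedgehog genes after BOC was seen. Genes were named by a rule that takes all named genes that passed, those with the next smallest p up to 12 per direction, up to 2 per list by p (or those called) and 18 fixed genes, of which PRG4 was not analysed here. Further list members are named beside these and were chosen after their values were seen. The scripts were tested on simulated data. Alternatives were no block, a random block, fewer arrays, a filter on dim probe sets, renewed quantile normalisation, a trended robust prior, array weights, 1 probe set per gene, leaving out each number and, chosen after seeing the data, leaving out 1 unstimulated array of day 27.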

Additional observations from a re-analysis of the deposited data

Results flagged for a closer look

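BOC changed in opposite directions with and without IL-1β. The stimulated change minus the unstimulated change from day 3 to day 9 was -2.42 ± 0.31 on the log2 scale (limma, adjusted p = 0.000902), with the same sign in 3 of 3 numbers at -2.49, -3.01 and -1.77. Among 11 alternatives the adjusted p ranged from 0.000335 to 0.452. It missed the threshold when number 1 was left out, with a value of -2.39 (adjusted p = 0.452), and when only the 12 arrays of days 3 and 9 were used (adjusted p = 0.137).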

How the results depend on the processing

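The count of probe sets that changed with IL-1β, 3 higher and 7 lower, depended on the fit. It was 1 and 3 with no replicate block, 8 and 16 with the 15 stimulated arrays, 1 and 5 with the 12 arrays of days 3 and 9, and 0 and 0 with the 6 arrays compared (limma, 1566 at an unadjusted p under 0.05). It was 1 and 11 for probe sets above the median signal, 14 lower with the trended robust prior, and 14 and 33 with array weights. Leaving out 1 replicate number gave 0 to 1 higher and 0 to 7 lower. Without number 1 or number 2 no probe set passed (1465 and 1019 at an unadjusted p under 0.05), and without number 3 RASGRP1 and BOC kept their calls (adjusted p = 0.0398 and 0.0333). Without the block BOC, NIM1K, RASGRP1 and the unnamed probe set kept theirs. BOC and CTSC lost their calls with both the 15 and the 12 arrays, CSGALNACT1 with the 15, and XG, STEAP1 and SERPINE2 with the 12 (adjusted p from 0.0558 to 0.328). CTSC passed under 5 of 12 alternatives, the fewest of the 9. All 9 named genes kept their sign under every alternative that gave them a value.

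Without IL-1β the count of 13 higher and 18 lower was 3 and 4 with no replicate block, 4 and 10 with a random block, 0 and 1 with the 12 arrays, 0 and 0 with 6 (all in limma) and 8 and 10 after renewed quantile normalisation. Leaving out a number gave 1 to 7 higher and 1 to 6 lower. For the difference of the changes, 0 higher and 1 lower became 0 lower with the 12 arrays and 2 lower with the trended robust prior, and leaving out a number gave 0 to 1 higher and 0 to 3 lower.

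Among 45 lists the median changed sign in 3 after renewed quantile normalisation, the Wnt, NF-kB and fibroblast lists, all near 0. With 3 pairs, a change had to be several times its standard error to be called. SMTN passed in limma at -1.22 ± 0.23 (adjusted p = 0.0454), and ENPP1 missed at -0.69 ± 0.13 (adjusted p = 0.0534). At the median standard error of 0.20, a change of the size of that of ENPP1 was therefore out of reach. A missed call does not show that a gene was unchanged.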

Other observations

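Genes of oxidative phosphorylation differed between replicate numbers more than between days. With IL-1β the median of 59 measured subunit genes was 0.15 in number 1, 0.16 in number 2 and -0.42 in number 3, where 59 of 59 were below 0. Over the 3 numbers the median was -0.05 and 0 members passed the test. Without IL-1β the medians were -0.22, -0.04 and -0.12. NDUFA10, a complex I subunit, was at 8.83, 8.61 and 8.73 at day 3 and 9.40, 9.15 and 8.71 at day 9 (0.37, adjusted p = 0.871), and ATP5PD of the ATP synthase was at 11.47, 11.17 and 11.48 and then 11.32, 11.08 and 10.92 (-0.27, adjusted p = 0.809). The 32 proteasome subunit genes had the same order, with medians of -0.05, 0.16 and -0.31.

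Integrin and adhesion genes gave 0 calls among 32, with 25 below 0 and 7 lower at an unadjusted p under 0.05, where 47.6% of all named genes were below 0 and 3.2% were lower at that p. The medians of numbers 1 and 2 were -0.23 and -0.24, and that of number 3 was 0.03, with 14 lower and 17 higher. ITGB3, the β3 integrin chain, was at 6.94, 4.93 and 4.91 at day 3 and 4.47, 4.24 and 4.46 at day 9 (-1.21 ± 0.31, adjusted p = 0.268), and number 1 at day 3 stood far above the others. ITGA10, the α chain of a collagen receptor of chondrocytes, was at 9.18, 9.50 and 8.21 and then 8.05, 7.86 and 8.21 (-0.93, adjusted p = 0.4).

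Survival and cell cycle genes gave 0 calls among 26 and 64 genes. BCL2, an inhibitor of apoptosis, was at 8.02, 7.75 and 7.67 at day 3 and 7.24, 7.04 and 6.82 at day 9 (-0.78 ± 0.23, adjusted p = 0.413), with separate days. RRM2B, of the same list, was at 0.49 (adjusted p = 0.805), and 15 of the 26 were above 0 and 11 below. The S-phase cyclin gene CCNA2 was at -0.70 with IL-1β (adjusted p = 0.561) and 0.36 without it (adjusted p = 0.759). POLA1, also of the cell cycle list, was at 0.35 with IL-1β (adjusted p = 0.796) and 0.12 without it (adjusted p = 0.912). Of the 64 cell cycle genes, 31 were above 0 and 33 below with IL-1β. At an unadjusted p under 0.05 in limma, 3 of them were higher and 1 was lower.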
